A study of Rattus norvegicus with 16 samples.

Results

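The 71 genes described here encode the heat shock proteins and the DnaJ proteins that work with them. They are the rows of the gene table whose symbol begins with Hspa, Hspb, Hspd, Hspe, Hsph, Dnaja, Dnajb or Dnajc and a digit, together with Cryab, Hsp90aa1, Hsp90ab1 and Hsp90b1. They make up 71 of the 17147 genes in the table. RNA sequencing had been done on 16 libraries of the supraspinatus, a muscle of the rotator cuff, from Sprague Dawley rats. Of these, 4 libraries came from unoperated controls, labelled 0 days. The other 3 groups of 4 libraries were taken 10, 30 and 60 days after an operation in which the supraspinatus was torn through its full thickness on both sides and the suprascapular nerve was divided by neurectomy. The labels give no age, no genetic change and no sham operation, so the tear, the loss of the nerve, the operation itself and the time since it cannot be told apart. They do not say whether the 4 libraries of a group came from 4 rats. The title of each library holds a letter, L or R, whose meaning is not given. With an operation on both sides, libraries of a group could be muscles of the same rat. The p-values thus measure the spread between libraries, which may be partly technical or within a rat, and not a known spread between rats.

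Chaperones keep proteins soluble, help them fold and pass on those that cannot be refolded. Small heat shock proteins bind unfolding proteins without using ATP, and several of them sit at the Z-disc and on actin and desmin in muscle. Hsp70 proteins bind and release stretches of unfolded protein in a cycle driven by ATP; J-proteins, the products of the DnaJ genes, bring the client and start ATP hydrolysis, while Hsp110 proteins release the nucleotide. Hsp90 finishes the folding of kinases, steroid receptors and, in muscle, myosin. Mitochondria and the endoplasmic reticulum hold their own Hsp70 and J-proteins, and mitochondria also hold the Hsp60 and Hsp10 chaperonin. Many chaperone genes carry heat shock elements, the binding sites of heat shock factors, which are built of inverted repeats of a short unit.

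Promoter sequences, from 250 bases before to 50 bases after the annotated start in RefSeq on GRCr8, were at hand for 55 of the 71 genes. The submitters' processing notes name rn5, another build, so the sequences describe the genes and not the mapped fragments. A pair of facing units, GAANNTTC, was found in 13 of the 55 promoters (23.6%), against 8.59% of 33469 RefSeq promoters of the same length. The other facing pair, TTCNNGAA, was found in 10 (18.2%, against 8.77%). Both pairs read the same on either strand, and 16 of the 55 promoters (29.1%) held at least one of them, against 15.9% of all. The motif of 3 units in a row, which is GAANNTTC followed after NN by a further GAA and so contains both pairs, was searched on both strands. It was found in 5 promoters (9.09%, against 0.798%), those of Dnaja1, Hspa8, Hspd1, Hspe1 and Hsph1. Hspd1 and Hspe1 lie head to head with their starts 290 bases apart, so their promoters overlap and share 1 element. A match in a promoter is a description of its letters and no evidence of binding. The 6 promoters below belong to genes whose courses are described in the following paragraphs, 3 with the motif of 3 units (Hsph1, Dnaja1, Hspe1) and 3 of small heat shock proteins with single pairs (Hspb6, Hspb8, Hspb1). Each runs 5′ to 3′ on the gene's strand from 250 bases before the start to 30 bases after it, and capitals mark the matches.
Hsph1 (GRCr8 chr12:10427118-10427397, plus strand): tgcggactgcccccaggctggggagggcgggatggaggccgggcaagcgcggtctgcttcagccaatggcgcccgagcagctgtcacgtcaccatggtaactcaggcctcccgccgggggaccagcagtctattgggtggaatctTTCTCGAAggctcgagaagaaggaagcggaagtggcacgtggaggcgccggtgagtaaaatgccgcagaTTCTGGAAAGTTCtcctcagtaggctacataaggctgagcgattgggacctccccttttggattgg
Dnaja1 (GRCr8 chr5:60638154-60638433, plus strand): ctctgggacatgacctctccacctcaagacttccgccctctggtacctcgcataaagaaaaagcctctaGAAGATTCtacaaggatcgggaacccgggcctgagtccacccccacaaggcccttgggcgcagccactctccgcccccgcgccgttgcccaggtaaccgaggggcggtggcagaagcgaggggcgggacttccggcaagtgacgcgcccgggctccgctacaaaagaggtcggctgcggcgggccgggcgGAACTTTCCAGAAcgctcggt
Hspe1 (GRCr8 chr9:64084077-64084356, plus strand): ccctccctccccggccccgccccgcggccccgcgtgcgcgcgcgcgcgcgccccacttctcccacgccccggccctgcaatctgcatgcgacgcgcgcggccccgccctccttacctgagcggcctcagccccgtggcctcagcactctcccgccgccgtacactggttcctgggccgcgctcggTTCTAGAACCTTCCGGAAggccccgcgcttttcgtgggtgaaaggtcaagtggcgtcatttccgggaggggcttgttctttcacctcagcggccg
Hspb6 (GRCr8 chr1:94934122-94934401, plus strand): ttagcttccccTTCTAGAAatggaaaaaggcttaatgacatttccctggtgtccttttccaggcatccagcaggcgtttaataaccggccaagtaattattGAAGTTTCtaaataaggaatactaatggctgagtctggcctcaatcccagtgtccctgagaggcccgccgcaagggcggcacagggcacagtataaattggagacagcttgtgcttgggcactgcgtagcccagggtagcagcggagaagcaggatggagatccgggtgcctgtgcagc
Hspb8 (GRCr8 chr12:45837058-45837337, plus strand): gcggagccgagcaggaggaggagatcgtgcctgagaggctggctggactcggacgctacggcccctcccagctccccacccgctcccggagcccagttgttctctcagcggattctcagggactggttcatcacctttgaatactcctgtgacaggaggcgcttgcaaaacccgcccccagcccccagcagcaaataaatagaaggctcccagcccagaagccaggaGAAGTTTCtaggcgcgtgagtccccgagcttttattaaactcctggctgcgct
Hspb1 (GRCr8 chr12:26432272-26432551, minus strand): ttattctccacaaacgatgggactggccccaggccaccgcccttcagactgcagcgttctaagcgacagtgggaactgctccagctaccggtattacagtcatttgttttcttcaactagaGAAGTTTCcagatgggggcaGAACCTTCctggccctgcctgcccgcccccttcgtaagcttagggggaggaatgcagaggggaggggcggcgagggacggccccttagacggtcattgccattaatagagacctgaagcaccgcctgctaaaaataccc
In these letters the element of Hsph1 begins 36 bases before the start, and those of Hspe1, which overlap, begin 65 and 60 bases before it. The element of Dnaja1 begins 10 bases after the start. Hspb6 has pairs beginning 239 and 149 bases before its start, Hspb1 has them 129 and 109 bases before, and Hspb8 has 1 pair 23 bases before. Outside its element Hsph1 has a further pair 105 bases before the start and Dnaja1 has one 181 bases before.

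The libraries held 17184282 to 39903266 fragments assigned to genes. Levels are given in CPM, the fragments of a gene scaled to a common library size, with TMM, a method that sets each library's scale by the bulk of its genes. The TMM factors were lowest in the 0-day libraries, at 0.75 to 0.775, and highest in the 10-day libraries, at 1.18 to 1.24. Scaling by the library totals instead moved the median log2 fold change of all tested genes by 0.66 on day 10, 0.49 on day 30 and 0.41 on day 60, each against 0 days. Each change below is thus measured against most other genes. A value "by totals" is given beside a gene, or in the closing section, where that scaling turned a direction that was called under either scaling. It is also given for many calls that this scaling ended, but not for all. For example, Dnajc10, Dnajc18 and Hspa13 at 60 days against 0 days went from called values of -0.48, -0.41 and -0.63 to -0.07, -0.0036 and -0.23. A call without such a value may thus have been lost by totals. The summed level of 5 muscle fibre markers (Acta1, Ckm, Mb, Tnnt3, Myh4) was 174280 to 193090 CPM on day 0, 54492 to 57054 on day 10, 82047 to 118330 on day 30 and 98463 to 115910 on day 60. None of the 5 was at 0. Mb, the gene of myoglobin, went against the sum, with 11265 to 14182 CPM at 0 days and 15130 to 26859 in the libraries after injury. Summed over 3 epithelial markers the level was 0.131 to 1.69 CPM; Cdh1, the highest of them, was above 0 in all 16 libraries, and Krt5 and Krt14 were at most 0.147 CPM (Krt14). Sums over 5 macrophage markers ranged from 12.7 to 23.5 CPM at 0 days and from 42.7 to 88.2 after injury. Sums of 4 fibroblast markers were 281 to 528 CPM at 0 days and 572 to 1617 after injury. Adipocyte marker sums (4 genes) stayed between 7.42 and 41.5 CPM up to 30 days and reached 49.6 to 119 at 60 days. The part of these shifts in the changes below was not tested. Levels are given with the SD over 4 libraries and log2 fold changes with their standard error. In whole muscle, fewer cells of a type and less RNA per cell cannot be told apart.

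Of the 71 genes, 65 had a mean of 10 or more raw fragments per library, and their change is described. Just inside this limit were Dnajb13 with a mean of 30.9 fragments and Dnajc6 with 54.4; just outside were Dnajb3 with 9.81 and Dnajc5b with 9.69. The other 4 genes below it, Dnajb7, Dnajb8, Dnajc5g and Hspb9, averaged 0.125 to 1.62 fragments. Among the 65, only Dnajc6 averaged under 10 fragments in 1 of the groups. Together the 71 genes took 1.32% ± 0.071 (SD, n = 4) of all fragments on day 0, 1.98% ± 0.081 on day 10, 1.85% ± 0.046 on day 30 and 1.87% ± 0.18 on day 60. The small heat shock proteins took 0.462% on day 0, 0.644% on day 10, 0.842% on day 30 and 0.919% on day 60. Hsp90 transcripts took 0.211%, 0.490%, 0.280% and 0.242% at these times. These shares are of all fragments and so follow the totals and not the TMM scale.

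At 10 days 39 of the 65 genes differed from 0 days (edgeR's quasi-likelihood test, Benjamini-Hochberg adjusted p under 0.05), 16 higher and 23 lower. The counts of the 65 here and below include Dnajc6, from whose calls no test is read, for the reason given with its values. Among all 11658 tested genes 62.7% differed, 33.3% higher and 29.4% lower, so the share of chaperone genes that changed was close to the background. At 30 days 44 of the 65 differed, 14 higher and 30 lower, against 64.6% of all genes (33.7% higher, 30.9% lower). At 60 days 37 differed, 12 higher and 25 lower, against 59.0% (29.9% higher, 29.1% lower). The split into higher and lower genes depends on the scaling. By totals, it was 43 higher and 8 lower at 10 days, against 70.0% and 10.1% of all genes under that scaling. At 30 days it was 35 and 12 by totals (all genes 63.1% and 11.9%), and at 60 days 32 and 10 (all genes 57.8% and 12.1%). With upper-quartile factors it was 18 and 21 on day 10, 18 and 21 on day 30 and 19 and 22 on day 60, where 36.7%, 40.8% and 39.1% of all genes were higher and 27.0%, 24.8% and 22.4% lower. With RLE factors the excess of lower genes was kept, at 16 and 28, 14 and 32, and 10 and 25, where 31.1%, 32.1% and 29.5% of all genes were higher and 30.9%, 32.1% and 29.4% lower. Changes of at least 2-fold were seen in 8 of the 65 on day 10, 9 on day 30 and 9 on day 60 (background 22.6%, 21.9% and 17.5%). The 4 libraries of a time and the 4 controls did not overlap for 40 of the 65 genes on day 10, 43 on day 30 and 36 on day 60, against 59.0%, 60.2% and 50.0% of all genes. The median log2 fold change of the 65 was -0.09 on day 10, -0.20 on day 30 and -0.14 on day 60, beside 0.06, 0.05 and 0.04 for all tested genes.

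A test of the 4 times together called 57 of the 65 genes, against 84.7% of all. The 8 not called were Dnajb1, Dnajb11, Dnajc24, Dnajc7, Dnajc8, Hspa12a, Hspa1a and Hspa2. Genes higher than 0 days at all 3 times were Hspb7, Hspb8, Hspb11, Hsp90aa1 and Dnajc9 (5 of 65, background 16.6%). Lower at all 3 times were Hspa9, Hspd1, Dnaja3, Dnajb9, Dnajc3, Dnajc11, Dnajc21, Dnajc27 and Dnajc28 (9 of 65, background 15.6%). Another 8 genes were called in one direction at one time and in the other at another time, against 6.45% of all genes: Cryab, Hspb3, Hsph1, Hspa4, Hsp90ab1, Dnaja2, Dnajc2 and Dnajc30. By totals, of these 8 only Dnajc2 was called in both directions, so the turns of the other 7 depend on the scaling.

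**Figure D1:**
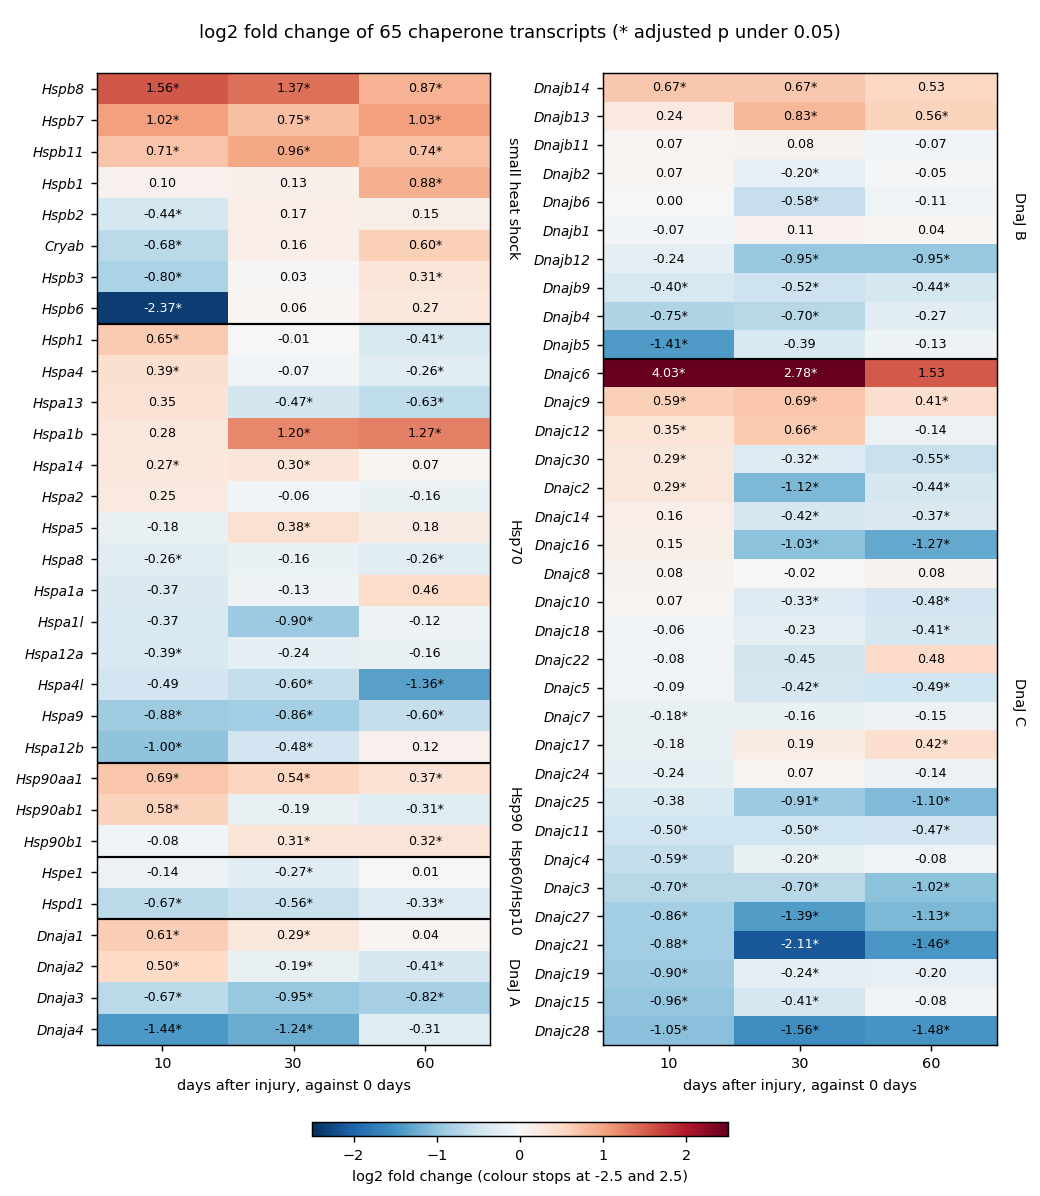
log2 fold change of the 65 genes (rows, ordered by family and by the 10-day value) at 10, 30 and 60 days against 0 days (columns), each over 4 libraries against 4, with an asterisk for an adjusted p under 0.05. The colour scale runs from -2.5 to 2.5. Hspb6 on day 10 (-2.37) and Dnajc21 on day 30 (-2.11) are the deepest blue cells. Dnajc6 on day 10 (4.03) and day 30 (2.78) passes the red end, and no test is read from its asterisks.

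Among the small heat shock proteins, Hspb6, Cryab, Hspb2 and Hspb3 were lower at 10 days, while Hspb7, Hspb8 and Hspb11 were higher. At 10 days 3 of the 8 described genes were higher and 4 lower. At 30 days 3 were higher and none lower, and at 60 days 6 were higher and none lower. The higher genes at each time include Hspb11, which belongs to the family by name only. Those at 60 days also include Hspb3, whose call was lost in some fits without 1 library. Of all genes, 33.3% were higher and 29.4% lower on day 10, 33.7% and 30.9% on day 30, and 29.9% and 29.1% on day 60. By totals the counts of the 8 were 5 and 1, 7 and 0, and 8 and 0, where 70.0%, 63.1% and 57.8% of all genes were higher. The median of the 8 was -0.17, 0.17 and 0.67 on the log2 scale at the 3 times.

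Hspb6, which encodes Hsp20, a small heat shock protein of striated and smooth muscle, had the deepest drop of the 65 genes at 10 days. Its level was 2037, 2094, 2248 and 2468 CPM in the 0-day libraries and 262, 293, 383 and 771 CPM at 10 days. The levels were 1656, 2332, 2545 and 2678 CPM at 30 days and 2348, 2568, 2736 and 2999 CPM at 60 days. Every 10-day library lay below every library of the other groups, while the 30- and 60-day libraries overlapped the 0-day ones. The log2 fold change at 10 days was -2.37 ± 0.27 (adjusted p = 1.63e-06), and from 10 to 60 days it was 2.64 ± 0.27 (adjusted p = 8.75e-07). At 30 and 60 days against 0 days it was 0.06 ± 0.26 and 0.27 ± 0.26, with adjusted p of 0.855 and 0.388. By totals the 10-day value was -1.72 and called. Lower values on day 10 were also measured for the summed markers of smooth muscle and pericytes, which were 279 to 378 CPM on day 0 and 105 to 160 on day 10. The marker sums were 181 to 221 CPM at 30 days, where 2 of the 4 markers were called lower than at 0 days, and 193 to 409 CPM at 60 days. The part of these cells in the course of Hspb6 was not tested.

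Cryab, which encodes alphaB-crystallin, a partner of desmin at the Z-disc, went from a dip to a rise. Its levels were 1904, 1983, 2011 and 2116 CPM at 0 days and 1038, 1307, 1324 and 1332 at 10 days. They were 2132, 2159.7, 2252 and 2440.0 CPM at 30 days and 2586, 2697, 3286 and 3581 at 60 days. No 2 of the 4 groups overlapped. The log2 fold change against 0 days was -0.68 ± 0.11 on day 10 (adjusted p = 5.97e-05), 0.16 ± 0.11 on day 30 (adjusted p = 0.209) and 0.60 ± 0.11 on day 60 (adjusted p = 0.000268). By totals the 10-day value was -0.02 and not called (adjusted p = 0.827), while the 60-day value was 1.00. From 10 to 60 days the increase was 1.28 ± 0.11, and 1.03 by totals.

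Hspb3 and Hspb2, which form a complex with each other in muscle, were also lowest at 10 days. Hspb3 averaged 84.7 ± 11.4 CPM at 0 days and 48.8 ± 8.21 at 10 days (SD, n = 4), with a log2 fold change of -0.80 ± 0.12 (adjusted p = 2.56e-05; -0.14 by totals, adjusted p = 0.277). It averaged 86.7 ± 12.3 CPM at 30 days and 105 ± 3.98 at 60 days. Its 60-day value of 0.31 ± 0.12 (adjusted p = 0.0364) missed the threshold when any one of 5 libraries was left out, 0-day replicate 1 or 2 or 60-day replicate 1, 2 or 4, with values of 0.25 to 0.33. Hspb2 averaged 64.5 ± 3.5 CPM on day 0, 47.7 ± 4.95 on day 10, 72.4 ± 5.59 on day 30 and 71.7 ± 9.86 on day 60. Its log2 fold change at 10 days was -0.44 ± 0.10 (adjusted p = 0.00093), and by totals it turned to 0.22 (adjusted p = 0.0265). From 10 to 60 days both were higher, by 1.10 for Hspb3 and 0.59 for Hspb2, under every scaling tried.

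Hspb8 and Hspb7 rose at all 3 times. Hspb8 works with Bag3 to hand damaged filamin to autophagy. Its levels were 518, 593, 618 and 654 CPM on day 0, 1563, 1589, 1729.5 and 2139 on day 10, 1388, 1440.2, 1590.1 and 1739 on day 30 and 855, 971, 996 and 1518 on day 60. All 12 libraries after injury lay above all 4 of the controls. Against 0 days the log2 fold changes were 1.56 ± 0.16, 1.37 ± 0.16 and 0.87 ± 0.16, with adjusted p of 2.83e-07, 1.5e-06 and 0.00019. The level was lower at 60 than at 10 days, by a log2 difference of -0.69 ± 0.16 (adjusted p = 0.00103). Bag3 itself, which is not a heat shock protein, had log2 fold changes of 0.26 ± 0.10 on day 10, 0.40 ± 0.10 on day 30 and 0.55 ± 0.10 on day 60, all called. Its 10-day value was 0.18 to 0.27 and not called without 0-day replicate 1, 3 or 4 or 10-day replicate 2, and was 0.23 and not called with RLE factors.

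Hspb7, a small heat shock protein of heart and skeletal muscle that binds filamin C, read 582, 637, 753 and 754 CPM at 0 days and 1239, 1243, 1404 and 1648 at 10 days. At 30 days the libraries read 1086, 1164, 1165 and 1168 CPM and at 60 days 911, 1380.3, 1415 and 1869. Again no library after injury reached down to the controls. Log2 fold changes from 0 days were 1.02 ± 0.16, 0.75 ± 0.16 and 1.03 ± 0.16, with adjusted p of 4.27e-05, 0.000762 and 5.74e-05, and the 10- and 60-day levels did not differ beyond their spread (0.01 ± 0.16, adjusted p = 0.959).

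Hspb1, which encodes Hsp27, a binder of actin, was higher at 60 days. Its levels were 309, 433, 445 and 450.3 CPM on day 0, 381, 389, 488 and 501 on day 10, 370.1, 436, 486 and 505 on day 30 and 541, 747, 759 and 977 on day 60. The 60-day libraries lay above all others, and the first 3 groups overlapped. The log2 fold change on day 60 was 0.88 ± 0.17 (adjusted p = 0.000292), beside 0.10 ± 0.17 on day 10 and 0.13 ± 0.17 on day 30 (adjusted p = 0.604 and 0.493). By totals all 3 were called, at 0.76, 0.62 and 1.28. Hspb11, which carries the family's name but encodes a subunit of intraflagellar transport, averaged 2.97 ± 0.238 CPM at 0 days and 4.86 ± 0.5, 5.79 ± 0.48 and 4.96 ± 0.716 at the later times. It was called higher at all 3, by 0.71, 0.96 and 0.74 on the log2 scale.

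**Figure D2:**
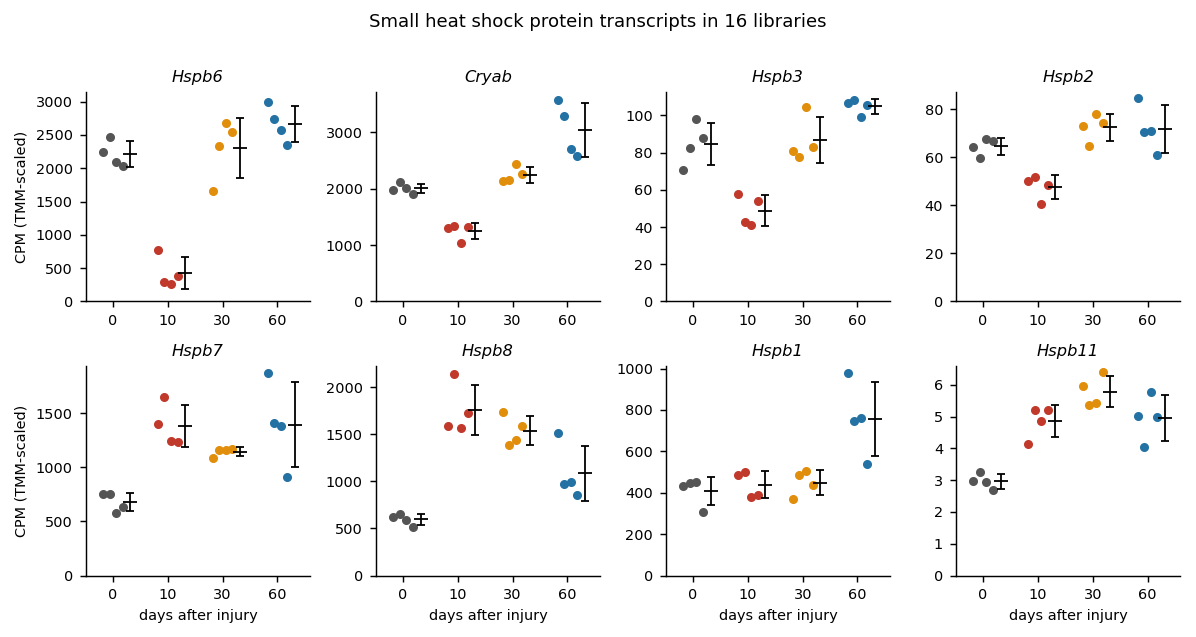
TMM-scaled CPM (y axis, from 0) of 8 small heat shock protein genes in each library (points) at 0, 10, 30 and 60 days after injury (x axis), with the mean and SD of 4 libraries beside the points. Hspb6 falls to 262 to 771 CPM at 10 days from 2037 to 2468, Hspb7 and Hspb8 sit above the controls at all later times, and Cryab is highest at 60 days.

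Both cytosolic Hsp90 genes, the Hsp110 genes Hsph1 and Hspa4 and the J-protein genes Dnaja1 and Dnaja2 were higher at 10 days than at 0 days. All but Hsp90aa1 were then lower at 30 and at 60 days than at 10 days. Hsp90ab1, the constitutive Hsp90, read 2285, 2368, 2427 and 2495 CPM at 0 days and 3376, 3483, 3565 and 3932 at 10 days. It read 2016, 2048, 2152 and 2183 CPM at 30 days and 1627, 1929.6, 1963 and 2208 at 60 days. The 10-day libraries were above all others, and those of 30 and 60 days were below the controls. The log2 fold change at 10 days was 0.58 ± 0.09 (adjusted p = 4.41e-05), and from 10 to 60 days it was -0.89 ± 0.09 (adjusted p = 7.11e-07). The 60-day value against 0 days, -0.31 ± 0.09 (adjusted p = 0.00974), turned to 0.09 by totals and was -0.21 and not called without 60-day replicate 4 (adjusted p = 0.0566), and -0.17 and not called with upper-quartile factors. The value of -0.19 ± 0.09 at 30 days was not called (adjusted p = 0.0868) and by totals was 0.31 and called.

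Hsp90aa1, the inducible Hsp90, which in muscle also takes part in myosin folding, read 142, 204, 221 and 244 CPM at 0 days and 282, 311, 333 and 379 at 10 days. It read 283, 288, 302 and 304 CPM at 30 days and 225, 225, 265 and 334 at 60 days. The lowest control library was well under the other 3, and the 60-day libraries overlapped the controls. Relative to the controls, log2 fold changes were 0.69 ± 0.15 and 0.54 ± 0.15 at 10 and 30 days (adjusted p = 0.000873 and 0.00544). The 60-day value of 0.37 ± 0.15 (adjusted p = 0.0444) was near the threshold. It was not called in 10 of the 16 fits that left out 1 library, and it was 0.23 without 60-day replicate 1 and 0.25 without 0-day replicate 4. The other 8 left out 0-day replicate 1, 10-day replicate 2 or 3, any of the 4 libraries of 30 days, or 60-day replicate 2, at 0.36 to 0.39. With RLE factors 1 Hsp90 gene was called higher at 60 days, against 2 in the main fit.

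Hsph1, an Hsp110 that recharges Hsp70 with ATP, was also highest at 10 days. Its levels were 136, 143, 153 and 155 CPM on day 0, 211, 215, 229 and 268 on day 10, 131, 142, 151 and 159 on day 30 and 90.6, 104, 118 and 131 on day 60. All 10-day libraries stood above the rest and all 60-day libraries stood below the controls. The log2 fold changes were 0.65 ± 0.11 (adjusted p = 4.89e-05), -0.01 ± 0.11 (adjusted p = 0.939) and -0.41 ± 0.11 (adjusted p = 0.00369). From 10 to 60 days the difference was -1.06 ± 0.11 (adjusted p = 4.56e-07) and -1.31 by totals. By totals the 60-day value against 0 days was -0.0032 and not called, and the 30-day value was 0.49 and called. Hspa4, another Hsp110, averaged 259 ± 16.9, 341 ± 23.9, 246 ± 17.2 and 216 ± 33.9 CPM at the 4 times (SD, n = 4). It was higher at 10 days, by 0.39, and fell from 10 to 60 days by 0.66 on the log2 scale (adjusted p = 2.28e-05). Its 60-day value against 0 days, -0.26 ± 0.10, was not called when 0-day replicate 1, 2 or 3 or 60-day replicate 2, 3 or 4 was left out (-0.20 to -0.25) or with upper-quartile factors (-0.12), and by totals it was 0.14, also not called.

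Among the J-proteins that serve cytosolic Hsp70, Dnaja1 read 67.8, 84.7, 94.2 and 95.5 CPM at 0 days and 117, 129, 133 and 142 at 10 days, with no overlap. The log2 fold change was 0.61 ± 0.11 (adjusted p = 0.0001). At 30 days it was 0.29 ± 0.11 (adjusted p = 0.0236), with 0.20 to 0.27 and no call without 0-day replicate 4 or 30-day replicate 1 or 2, and at 60 days it was 0.04 ± 0.11 (adjusted p = 0.757). Dnaja2 averaged 273 ± 9.64 CPM at 0 days and 386 ± 39.1 at 10 days, a log2 fold change of 0.50 ± 0.08 (adjusted p = 3.33e-05). At 60 days Dnaja2 averaged 205 ± 14.7 CPM, -0.41 ± 0.08 against 0 days (adjusted p = 0.000279), which by totals was -0.01 and not called. Both J-protein transcripts were lower at 60 than at 10 days, by -0.56 and -0.91. The fall of Dnaja1 from 10 to 30 days, -0.32 ± 0.11, was -0.27 and not called without 10-day replicate 4 and -0.25 and not called without 30-day replicate 3.

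Hspa8, the constitutive Hsp70 of the cytosol, moved little and its direction depended on the scaling. Its levels were 2849.9, 2899, 3192 and 3229 CPM on day 0, 2425, 2517, 2544 and 2645 on day 10, 2516, 2626, 2803 and 2929 on day 30 and 2317, 2532, 2608 and 2707 on day 60. The 10- and 60-day libraries were below the controls and the 30-day ones overlapped them. Against 0 days the log2 fold changes were -0.26 ± 0.09, -0.16 ± 0.09 and -0.26 ± 0.09, with adjusted p of 0.0125, 0.104 and 0.0154. By totals they were 0.39, 0.33 and 0.15, the first 2 called as higher. Without 0-day replicate 3 the 10-day value was -0.23 and not called (adjusted p = 0.0508), and the 60-day value was -0.20 to -0.22 and not called without 0-day replicate 2 or 3 or 60-day replicate 4, and -0.12 and not called with upper-quartile factors.

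Among the genes best known for induction by heat, Dnajb1 and Hspa1a were not called at any time against 0 days. Dnajb1, which encodes the stress-induced J-protein Hsp40, read 11.5, 17, 20.5 and 20.9 CPM on day 0, 14.8, 16.4, 16.6 and 19 on day 10, 15.6, 19.2, 19.8 and 20.7 on day 30 and 15.4, 17.5, 18.5 and 20.7 on day 60. All 4 groups overlapped. Its log2 fold changes were -0.07 ± 0.15, 0.11 ± 0.15 and 0.04 ± 0.16, none called, and the joint test of the 4 times gave an adjusted p of 0.726. By totals the 3 values were 0.59, 0.60 and 0.45, all called. Hspa1a and Hspa1b are near-identical copies whose fragments the authors' counting could split, and their deposited values were fractional in all 16 libraries, so each is uncertain on its own. Hspa1a read 57.7, 69.4, 94.8 and 121 CPM on day 0, 50.7, 61.3, 72.5 and 82.3 on day 10, 33.6, 81.4, 86.5 and 112 on day 30 and 81.5, 91.5, 124 and 175 on day 60, and its log2 fold changes were -0.37 ± 0.32, -0.13 ± 0.32 and 0.46 ± 0.32, with adjusted p of 0.338, 0.737 and 0.234. By totals its 60-day value was 0.86 and called. Hspa1b averaged 19.9 ± 4.33, 24.2 ± 3.15, 45.5 ± 11.7 and 47.9 ± 2.87 CPM at the 4 times (SD, n = 4), with called log2 fold changes of 1.2 ± 0.17 at 30 days and 1.27 ± 0.17 at 60 days. Counted as 1 gene, a choice made after these values were seen, the pair had log2 fold changes of -0.22 ± 0.25 on day 10, 0.23 ± 0.25 on day 30 and 0.65 ± 0.25 on day 60, with adjusted p of 0.463, 0.443 and 0.0377. Its summed level was 71.4 to 142 CPM at 0 days and 126 to 224 at 60 days, which overlap. Hspa1l, a neighbour of Hspa1a with fractional values in 3 libraries, was lower at 30 days (-0.90 ± 0.16, adjusted p = 0.000158).

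Hspa4l, an Hsp110 relative, averaged 10.4 ± 2.52 CPM at 0 days and 4.07 ± 1.14 at 60 days, with a log2 fold change of -1.36 ± 0.23 (adjusted p = 0.000122). Its 30-day value of -0.60 ± 0.22 was -0.43 and not called without 0-day replicate 1 or without 30-day replicate 3, and -0.10 and not called by totals. Hspa12b, an Hsp70 relative known from endothelium, read 28.7, 30.3, 32.6 and 40.8 CPM at 0 days and 13.6, 14.4, 16.3 and 21.8 at 10 days. It read 18.1, 21.9, 26.2 and 28.5 CPM at 30 days and 30.9, 33.3, 34.8 and 44.9 at 60 days. The 10-day libraries were below the controls (-1.0 ± 0.17, adjusted p = 9.63e-05) and those of 60 days overlapped them (0.12 ± 0.17, adjusted p = 0.573). By totals the 10-day value was -0.34 and not called (adjusted p = 0.078). Sums of 4 endothelial markers were 215 to 268 CPM on day 0, 113 to 185 on day 10, 169 to 200 on day 30 and 185 to 298 on day 60, and their part in the course of Hspa12b was not tested. Hspa2, best known from the testis, averaged 14.8 ± 1.97, 17.7 ± 2.21, 14.2 ± 2.04 and 13.3 ± 2.82 CPM at the 4 times and was not called against 0 days; by totals it was 0.91 at 10 days and 0.44 at 30 days, both called. Hspa14, a ribosome-bound Hsp70 relative, was higher at 10 and 30 days, by 0.27 and 0.30.

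**Figure D3:**
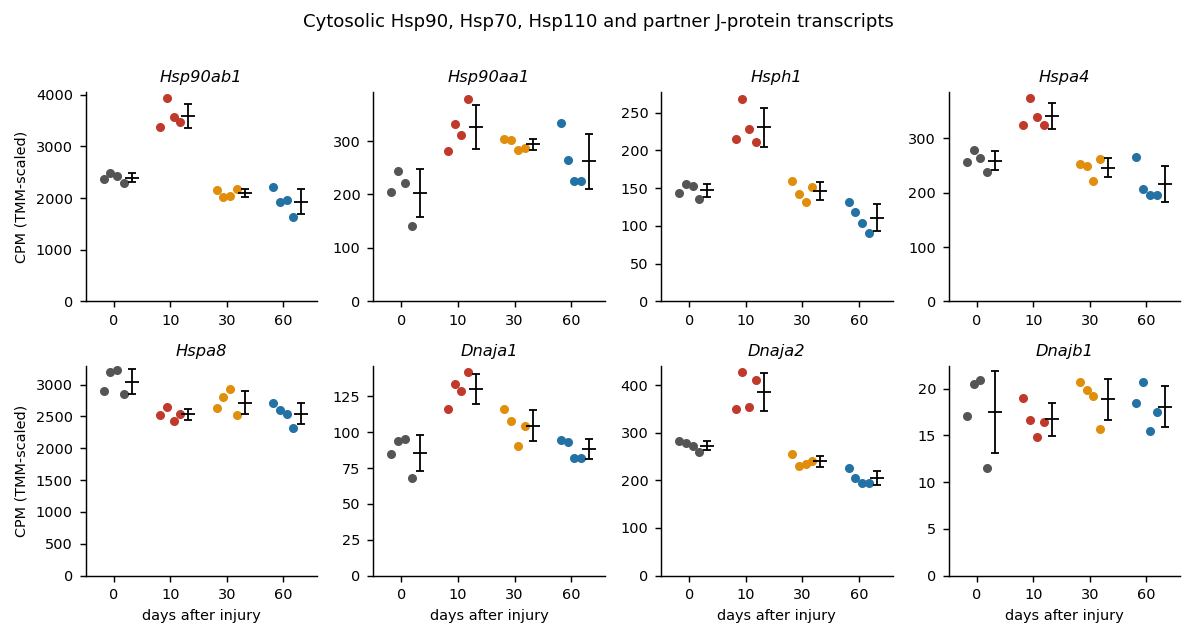
TMM-scaled CPM (y axis, from 0) of 8 cytosolic chaperone genes in each library (points) at 0, 10, 30 and 60 days (x axis), with mean and SD of 4 libraries. Hsp90ab1, Hsph1, Hspa4, Dnaja1 and Dnaja2 are highest at 10 days, while the 4 groups of Dnajb1 overlap.

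Chaperones of the mitochondria were lower after injury on the TMM scale. Of the 9 genes put in this group, which was drawn up with these results known, 7 were lower and 1 higher on day 10, all 9 were lower on day 30 and 6 were lower on day 60, against 29.4%, 30.9% and 29.1% of all genes lower. Their median log2 fold changes were -0.67, -0.50 and -0.47. By totals the counts were 4 lower and 3 higher on day 10, 3 lower and 2 higher on day 30, and 3 lower and 3 higher on day 60, where 10.1%, 11.9% and 12.1% of all genes were lower and 70.0%, 63.1% and 57.8% higher, with medians of -0.0095, -0.006 and -0.07. With upper-quartile factors 6 of the 9 were lower at 30 days, against 24.8% of all genes.

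Hspa9, the mitochondrial Hsp70 that pulls proteins through the inner membrane, was lower under every scaling tried. It read 809, 837, 908 and 934 CPM at 0 days and 431, 463, 485 and 510.2 at 10 days. The libraries read 429, 459, 493 and 545 CPM at 30 days and 490.1, 582, 599 and 626 at 60 days. All 12 libraries after injury lay below the 4 controls. Log2 fold changes from 0 days were -0.88 ± 0.10, -0.86 ± 0.10 and -0.60 ± 0.10 (adjusted p = 5.72e-07, 1.06e-06 and 5.42e-05), and by totals they were -0.23, -0.37 and -0.20, all called. Dnajc28, a little-studied J-protein placed with the mitochondria, read 23.5, 23.5, 23.8 and 24.3 CPM on day 0, 10.9, 11.1, 11.9 and 12.2 on day 10, 7.12, 7.6, 8.29 and 9.21 on day 30 and 6.53, 7.91, 9.47 and 10.3 on day 60. It had the largest drops of the group, -1.05 ± 0.12, -1.56 ± 0.12 and -1.48 ± 0.12, and by totals -0.39, -1.06 and -1.07, all called. Dnaja3, the J-protein of the mitochondrial matrix, was lower by -0.67, -0.95 and -0.82; by totals the 10-day value was -0.01 and not called, and the later values were -0.46 and -0.42.

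The chaperonin subunits Hspd1 and Hspe1, which lie head to head, were both lower at 30 days on the TMM scale. Hspd1, which encodes Hsp60, read 432, 438, 471 and 487 CPM on day 0, 278, 286, 287 and 299 on day 10, 277, 306, 322 and 335 on day 30 and 335, 363, 379 and 381 on day 60. No library after injury reached the lowest control. Relative to the controls, log2 fold changes were -0.67 ± 0.07, -0.56 ± 0.07 and -0.33 ± 0.07, with adjusted p of 7.17e-07, 6.01e-06 and 0.0012; by totals they were -0.01, -0.07 and 0.08 and not called. Hspe1, which encodes Hsp10, the lid of the Hsp60 barrel, read 124, 127, 130.5 and 142 CPM on day 0, 113, 115, 120.5 and 126 on day 10, 99.7, 108, 112 and 113 on day 30 and 115, 129, 140.4 and 141 on day 60. It was lower at 30 days on the TMM scale, with -0.27 ± 0.07 (adjusted p = 0.00443), by totals it was 0.22 and called as higher, and with upper-quartile factors -0.15 and not called. The 10- and 60-day values were -0.14 ± 0.07 and 0.01 ± 0.07 (adjusted p = 0.116 and 0.95), and by totals 0.52 and 0.42, both called as higher. Whether the 2 genes differed in their change was not tested.

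Dnajc15 and Dnajc19, J-proteins of the inner membrane's import motor, had their low point at 10 days. Dnajc15 read 88.6, 93.9, 97.3 and 103 CPM on day 0 and 45.1, 46.1, 49.9 and 54.7 on day 10, and reached 73.5, 90.9, 94.4 and 102 on day 60. Its log2 fold change was -0.96 ± 0.10 at 10 days (adjusted p = 5.1e-07) and -0.08 ± 0.10 at 60 days (adjusted p = 0.503), and by totals the 10-day value was -0.31 and the 60-day value 0.33, both called. Dnajc19 averaged 74.8 ± 2.86 CPM on day 0, 40.049 ± 4.3 on day 10 and 65.3 ± 5.69 on day 60, with a log2 fold change of -0.90 ± 0.09 on day 10. Both rose from 10 to 60 days under every scaling tried, by 0.88 and 0.70 on the TMM scale. Dnajc11, which sits with the cristae-organising complex, was lower by -0.50, -0.50 and -0.47; by totals the 10-day value was 0.16 and called as higher, and the later values were -0.01 and -0.07 and not called. Dnajc30, linked to complex I and the ATP synthase, was higher at 10 days (0.29 ± 0.09) and lower at 60 days (-0.55 ± 0.10; -0.15 and not called by totals).

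**Figure D4:**
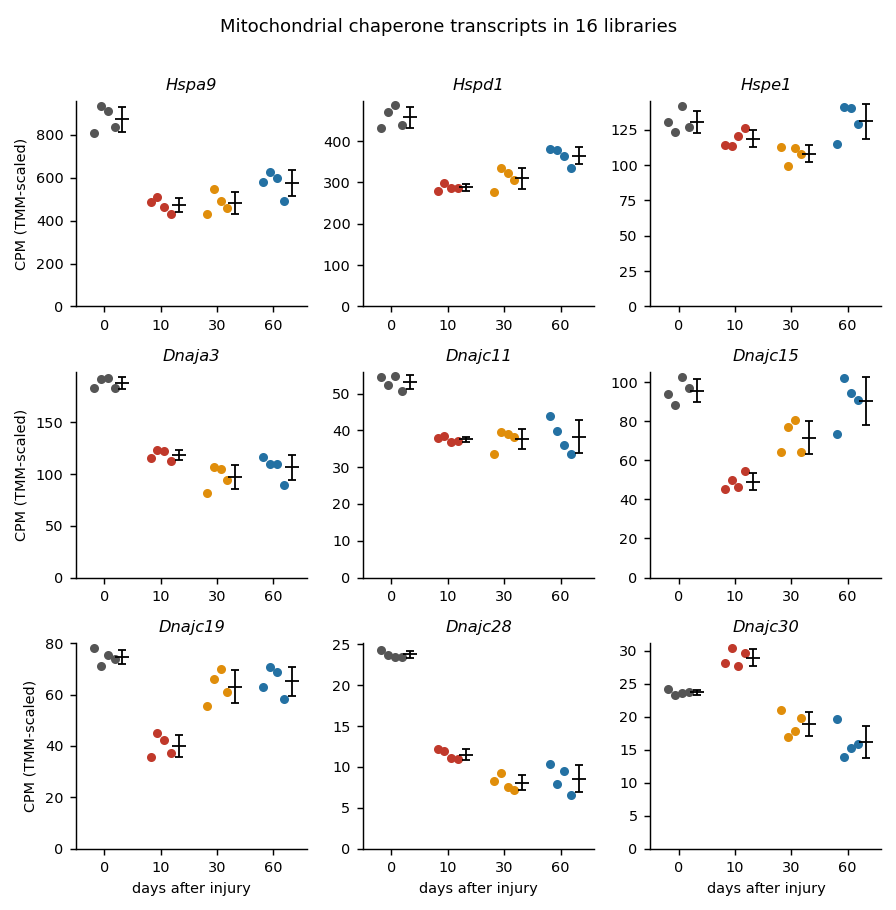
TMM-scaled CPM (y axis, from 0) of the 9 mitochondrial chaperone genes in each library (points) at 0, 10, 30 and 60 days (x axis), with mean and SD of 4 libraries. Hspa9, Hspd1, Dnaja3, Dnajc11 and Dnajc28 stay below the controls at all 3 later times, and Dnajc15 and Dnajc19 are lowest at 10 days.

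In the endoplasmic reticulum Hspa5, Hsp90b1 and the membrane J-protein gene Dnajb14 were higher at 30 days. Of 11 genes in this group, drawn up with results known, 1 was higher and 2 lower on day 10, 3 higher and 7 lower on day 30, and 1 higher and 7 lower on day 60. Of all genes, 33.3% were higher and 29.4% lower on day 10, 33.7% and 30.9% on day 30, and 29.9% and 29.1% on day 60. By totals the counts of the group were 10 and 0, 4 and 3, and 4 and 3, where 70.0%, 63.1% and 57.8% of all genes were higher and 10.1%, 11.9% and 12.1% lower. Dnajb14 averaged 2.19 ± 0.535 CPM at 0 days and 3.44 ± 0.894 at 30 days (SD, n = 4), and the groups overlapped. Its 30-day value of 0.67 ± 0.22 (adjusted p = 0.0149) was 0.54 and not called without 0-day replicate 2, and 0.52 and not called without 30-day replicate 1. Hspa5, which encodes BiP, read 242, 273, 275 and 292 CPM on day 0, 212, 232, 244 and 265 on day 10, 326, 353, 358 and 371 on day 30 and 281, 297, 307 and 340.4 on day 60. Its 30-day libraries were above all controls, with 0.38 ± 0.08 on the log2 scale (adjusted p = 0.000908). The 10-day value was -0.18 ± 0.08 (adjusted p = 0.0697), which by totals turned to 0.48 and was called. Hsp90b1, which encodes Grp94, averaged 165 ± 12.9 CPM on day 0, 205 ± 10.6 on day 30 and 206 ± 14.9 on day 60 (SD, n = 4), with called log2 fold changes of 0.31 and 0.32.

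Dnajc3, which encodes p58IPK, a luminal partner of BiP, read 40.4, 42.8, 44.5 and 46.7 CPM on day 0, 24.7, 25.6, 27.3 and 29.7 on day 10, 25.5, 25.6, 27.4 and 28.9 on day 30 and 20.6, 21, 21.5 and 22.7 on day 60. Every library after injury was below every control. The log2 fold changes were -0.70 ± 0.07, -0.70 ± 0.07 and -1.02 ± 0.07 (adjusted p = 4.16e-07, 5.38e-07 and 2.27e-08); by totals the 10-day value was -0.04 and not called, and the 60-day value was -0.62. Dnajc16 read 21.1, 21.7, 24.9 and 25.2 CPM on day 0, 21.4, 25.8, 27.4 and 28.7 on day 10, 9.44, 11.2, 12 and 12.7 on day 30 and 6.89, 7.07, 9.03 and 15.3 on day 60. Its fall came after 10 days: the values against 0 days were 0.15 ± 0.19, -1.03 ± 0.19 and -1.27 ± 0.20, and by totals the first was 0.81 and called as higher while the last 2 were -0.54 and -0.88. Dnajb12, a membrane J-protein of endoplasmic reticulum quality control, was lower at 30 and 60 days, by -0.95 and -0.95. Dnajb9, an inhibitor of the stress sensor Ire1, was lower by -0.40, -0.52 and -0.44, with 0.26, -0.03 and -0.03 by totals, the first called as higher and the others not called. Dnajb11, another BiP partner, averaged 47 ± 1.83, 49.4 ± 2.22, 49.8 ± 2.52 and 44.7 ± 4.45 CPM at the 4 times and was not called at any time; by totals it was higher at all 3, at 0.73, 0.58 and 0.34.

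Dnajc21 and Dnajc2, both linked to ribosomes, were called at all 3 times. Dnajc21, a factor of ribosome assembly, read 130.1, 135, 143 and 148 CPM at 0 days and 66.3, 71.1, 77.1 and 87.8 at 10 days. It read 31.4, 31.9, 32.4 and 32.5 CPM at 30 days and 47.7, 48, 52 and 54.2 at 60 days. None of the 4 groups overlapped another, and the 30-day libraries were the lowest. Against 0 days the log2 fold changes were -0.88 ± 0.08 (adjusted p = 6.84e-08), -2.11 ± 0.08 (adjusted p = 2.32e-11) and -1.46 ± 0.08 (adjusted p = 2.91e-09), and by totals -0.22, -1.62 and -1.05, all called. From 30 to 60 days the level rose by 0.66.

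Dnajc2, which encodes the ribosome-bound J-protein Zuotin (MPP11), rose and then fell. Its levels were 116, 123, 124 and 125 CPM on day 0, 136, 140.3, 154 and 165 on day 10, 54.9, 55.4, 56.4 and 57.8 on day 30 and 76.3, 88.8, 93.5 and 99.6 on day 60. The 4 groups did not overlap, the 10-day group being the highest and the 30-day group the lowest. Log2 fold changes from 0 days were 0.29 ± 0.08, -1.12 ± 0.08 and -0.44 ± 0.08 (adjusted p = 0.00392, 7.92e-09 and 0.000165). By totals the 60-day value was -0.04 and not called. The difference between 30 and 10 days was -1.41 ± 0.08 (adjusted p = 1.41e-08).

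Other J-proteins of the C class moved in both directions from 0 days. Dnajc27, a Rab-like GTPase with a J domain, read 109, 115, 119.9 and 129.98 CPM on day 0, 58.6, 65.8, 68.1 and 69.3 on day 10, 37.1, 45.2, 47.4 and 50.4 on day 30 and 44.7, 49.8, 50.026 and 71.5 on day 60. All libraries after injury were below the controls, with -0.86 ± 0.12, -1.39 ± 0.13 and -1.13 ± 0.13; by totals the 10-day value was -0.20 and not called (adjusted p = 0.105), and the later ones were -0.91 and -0.73. Dnajc25 averaged 8.21 ± 0.876 CPM at 0 days and 3.82 ± 1.36 at 60 days, a log2 fold change of -1.10 ± 0.18 (adjusted p = 8.63e-05). Dnajc9, a J-protein that chaperones histones, averaged 23.9 ± 1.68, 36.1 ± 2.43, 38.5 ± 4.48 and 31.9 ± 1.51 CPM at the 4 times and was higher at all 3 later times, by 0.59, 0.69 and 0.41. Dnajc5, which encodes cysteine string protein, a chaperone of exocytosis, was lower at 30 and 60 days (-0.42 and -0.49; 0.08 and -0.09 by totals, not called). Of the 24 described genes of the class, 5 were higher and 9 lower on day 10, 3 and 15 on day 30, and 2 and 13 on day 60. By totals these counts were 16 and 4, 10 and 7, and 9 and 6. The higher genes counted on day 10 and day 30 include Dnajc6, from whose calls no test is read. The shares of all genes were 33.3% higher and 29.4% lower on day 10, 33.7% and 30.9% on day 30 and 29.9% and 29.1% on day 60. By totals they were 70.0% and 10.1%, 63.1% and 11.9%, and 57.8% and 12.1%, so the 16 of 24 higher at 10 days were near the background.

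Dnajc6 and Dnajc5b, chosen for description after their values were seen, came up from almost no fragments. Dnajc6 encodes auxilin, which uncoats clathrin vesicles and is best known from neurons. It read 0.134, 0.169, 0.335 and 0.403 CPM on day 0, 2.57, 2.79, 4.79 and 7.79 on day 10, 0.84, 1.07, 2.66 and 3.02 on day 30 and 0.505, 0.622, 0.643 and 1.34 on day 60. These levels rest on 3 to 11 fragments in each 0-day library, 78 to 237 on day 10, 21 to 75 on day 30 and 9 to 29 on day 60. All libraries after injury were above the controls, and the spread within the 10-day group was wide. The gene passed the filter on low counts through the groups where it was high, so its fitted log2 fold changes of 4.03, 2.78 and 1.53 are a description and no test is read from them. Dnajc5b, a cysteine string protein relative just under the limit for description, had 0 fragments in all 4 of the 0-day libraries, 109 in the 10-day libraries together, 45 at 30 days and 1 at 60 days. Over the pooled libraries and their totals, its level at 10 days was 39.7-fold that of a floor of 3 fragments over the 0-day group. At 30 days it was 15.5-fold that floor. These ratios take the pooled fragments after injury as they are and leave out the spread between libraries. Of the 45 fragments at 30 days 26 came from replicate 1. Without that library, a check added after these values were seen, the ratio was 8.38-fold. Leaving out 1 of the 0-day libraries lowered the ratios to 27.4- to 31.8-fold at 10 days and 10.7- to 12.4-fold at 30 days. All these ratios follow the totals and not the TMM scale. Markers of Schwann cells, which also hold neural genes, summed to 41.9 to 69.3 CPM at 0 days and 17.2 to 33.9 at 10 days, with 2 of the 4 called lower. They were 40.4 to 69.4 CPM at 30 days and 81.5 to 184 at 60 days, and their part in the course of Dnajc6 was not tested.

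Of the A and B classes, Dnaja4 and Dnajb5 were low at 10 days and returned towards the control level. Dnaja4, a muscle-rich J-protein, read 258, 261, 274 and 276 CPM at 0 days and 90.7, 92.3, 97.6 and 115 at 10 days. It read 96.2, 98.2, 126 and 133 CPM at 30 days and 155, 197, 209 and 302 at 60 days. The 10- and 30-day libraries lay below the controls, and the 60-day libraries spread from below to above them. Relative to the controls, log2 fold changes were -1.44 ± 0.16 and -1.24 ± 0.16 (adjusted p = 1.2e-06 and 6.97e-06). The 60-day value of -0.31 ± 0.16 was not called (adjusted p = 0.106) and was -0.52 and called without 60-day replicate 1 (adjusted p = 0.00214). Dnajb5, known as a redox-sensitive partner of HDAC4 in muscle, read 212, 289, 311 and 374 CPM on day 0, 99.6, 104, 111 and 131 on day 10, 208, 213, 241 and 246 on day 30 and 206, 214, 301 and 364 on day 60. It was lower at 10 days (-1.41 ± 0.18, adjusted p = 5.39e-06; -0.76 by totals) and higher at 60 than at 10 days (1.28 ± 0.18). The 30-day value of -0.39 ± 0.18 (adjusted p = 0.0699) was called without 0-day replicate 4, at -0.51, and without 60-day replicate 1, at -0.39. Dnajb6, mutated in a limb-girdle muscular dystrophy and resident at the Z-disc, was lower at 30 days alone of the 3 times (-0.58 ± 0.08, adjusted p = 1.73e-05) and was higher at 60 than at 30 days (0.47 ± 0.08). By totals its 30-day value was -0.09 and not called, and its 10- and 60-day values were 0.66 and 0.29 and called as higher. Dnajb4 averaged 91.8 ± 13.3 CPM on day 0, 54.6 ± 3.37 on day 10 and 56.5 ± 4.44 on day 30, lower by -0.75 and -0.70; by totals these were -0.09 and -0.21 and not called.

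**Figure D5:**
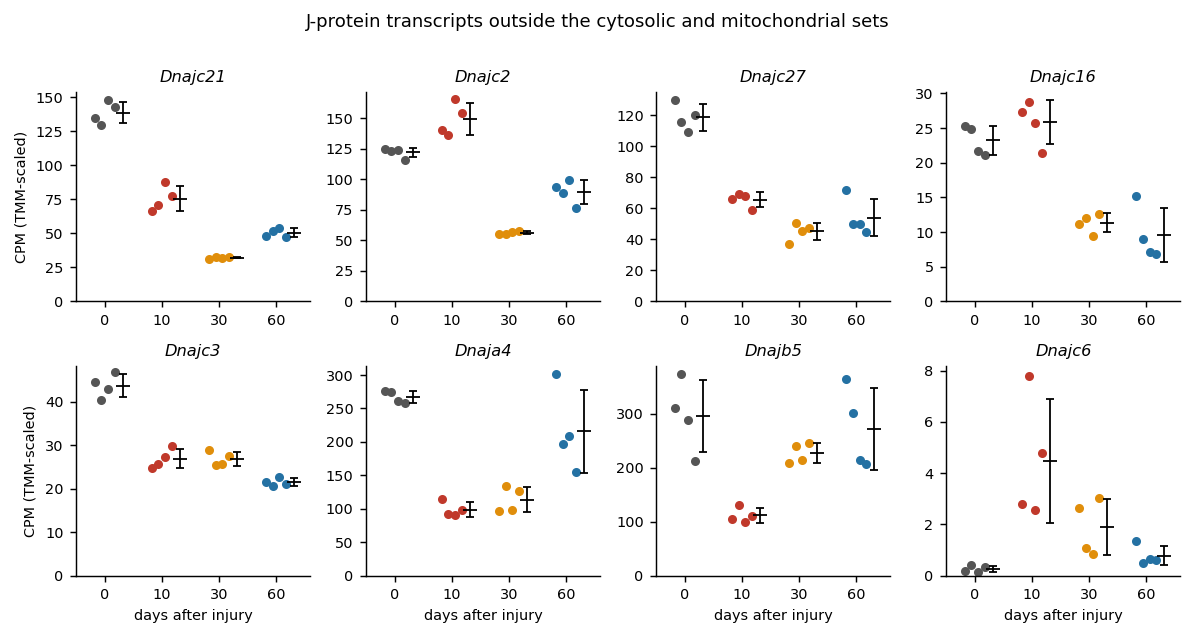
TMM-scaled CPM (y axis, from 0) of 8 J-protein genes in each library (points) at 0, 10, 30 and 60 days (x axis), with mean and SD of 4 libraries. Dnajc21 and Dnajc2 are lowest on day 30, Dnajc16 falls after 10 days, Dnaja4 and Dnajb5 are lowest on day 10, and Dnajc6 goes from at most 0.403 CPM on day 0 to 2.57 to 7.79 on day 10.

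Between the operated groups, 37 of the 65 genes differed between 30 and 10 days (15 higher and 22 lower at 30 days), against 47.3% of all genes. By totals the split was 10 and 28, against 13.1% of all genes higher and 34.5% lower. Between 60 and 10 days 44 differed (20 higher, 24 lower), against 61.1%; by totals it was 13 and 36, against 17.7% and 45.5%. Between 60 and 30 days 20 differed (12 higher, 8 lower), against 22.6%, and none by 2-fold, against 4.01% of all genes. By totals the split between 60 and 30 days was 9 and 14, against 749 and 2102 of all 11658 genes. In a fit of those 8 libraries alone 10 of the 65 genes were called. The share of all genes called in that fit is not given here. The lower count is thus not read as particular to these genes. Differences of at least 2-fold were called for 6 genes between 30 and 10 days (background 8.97%) and for 9 between 60 and 10 days (18.2%). The groups did not overlap for 37 genes between 30 and 10 days, 17 between 60 and 30 days and 41 between 60 and 10 days, against 43.8%, 20.1% and 51.2% of all genes. The genes higher at 60 than at 10 days include 5 of the 8 small heat shock proteins, while Hspb8 was lower; the genes lower at 60 days include Hsp90ab1, Hsph1, Hspa4, Dnaja1 and Dnaja2. The comparisons with 0 days share the same 4 control libraries, and each comparison between operated groups shares its libraries with those comparisons.

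Genes outside the family but on the same pathways were taken from 6 lists. The first list held the heat shock factors Hsf1, Hsf2 and Hsf4 and 2 genes of their binding proteins, Hsbp1 and Hsf2bp. Of these 5, Hsf2, Hsf4 and Hsf2bp were higher and Hsf1 lower at 10 and at 30 days, and Hsf2 and Hsf2bp were higher and Hsf1 lower at 60 days. Hsf2bp was at most 3.78 CPM in any library. Hsf1, the factor that binds heat shock elements after heat, was lower at all 3 times, by -0.36, -0.75 and -0.53 on the log2 scale (by totals 0.30 and called as higher at 10 days, and -0.12 and not called at 60 days). Hsf2, its relative, was higher at all 3, by 0.99, 1.05 and 0.86. Of 18 Hsp90 co-chaperones and myosin folding factors, 4 were higher and 10 lower on day 10, 1 and 12 on day 30, and 2 and 8 on day 60, with medians of -0.28, -0.24 and -0.17; by totals the counts were 12 and 1, 10 and 3, and 9 and 3. Fkbp4, an Hsp90-bound prolyl isomerase, fell the furthest of these, by -1.47, -1.71 and -1.18. Smyd1, a methyltransferase of sarcomere assembly, was lower by -1.07, -1.28 and -1.04, with -0.41 and no call by totals at 10 days. Unc45b, the myosin chaperone that works with Hsp90, was 0.03 ± 0.07 at 10 days and not called, and was lower at 60 days by -0.59. Stip1, which links Hsp70 to Hsp90, was -0.23 ± 0.08 at 10 days and 0.43 by totals, called in opposite directions. Without 0-day replicate 2 or 3 the 10-day value was -0.20 and not called.

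Of 17 Hsp70 exchange and adaptor factors, 9 were higher and 3 lower on day 10, 4 and 7 on day 30, and 3 and 6 on day 60; the later splits were 6 and 3 and 5 and 2 with upper-quartile factors, and by totals 15 and 1, 13 and 2, and 10 and 2. Synpo2, a Z-disc partner of Bag3, was lower by -2.03, -1.81 and -1.25 (-1.91 at 60 days without 60-day replicate 1, which read 819 CPM against 229 to 262 in the other 3), and Sil1, which exchanges the nucleotide of BiP, was higher by 1.69, 1.98 and 0.48. Of 13 subunits of the TRiC chaperonin and prefoldin, 8 were higher and 2 lower on day 10, 7 and 1 on day 30, and 6 and 0 on day 60; by totals these were 11 and 0, 13 and 0, and 13 and 0. Cct2 was higher by 0.82 at 10 days. Of 16 folding factors of the endoplasmic reticulum, 10 were higher and 1 lower on day 10. The counts were 10 and 2 on day 30 and 8 and 2 on day 60. By totals they were 16 and 0, 15 and 0, and 13 and 1 at the 3 times. With upper-quartile factors they were 14 and 1, 11 and 1, and 8 and 2. On day 10 Sdf2l1 was higher by 2.02 and Erp29 by 0.87. Of 9 tested folding and protease factors of mitochondria, 5 were lower and 1 higher on day 10, 7 and 1 on day 30, and 8 and 1 on day 60; by totals these were 2 and 4, 1 and 3, and 3 and 2. Spg7, a subunit of an inner membrane protease, was lower by -1.05 at 10 days, and Timm44, which holds Hspa9 at the import channel, by -0.89. By totals the Timm44 value at 30 days was 0.06 and not called, against -0.43. The shares of all genes under each scaling, given above with the counts of the 65, are the background for these counts, and nothing particular to a list was tested.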

How the data were processed

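RNA from 16 rat supraspinatus libraries was sequenced, 4 in each of 4 groups; per the labels' protocols the RNA was extracted with QIAGEN miRNeasy and the libraries made with Illumina TruSeq mRNA v2. The authors deposited estimated counts, raw fragments per gene, of which 233 genes had fractional values. The submitters' processing notes name rn5, bcl2fastq 1.8.4, FastQC, TopHat2 2.0.9, Bowtie2 2.1.0.0, Cufflinks and Cuffdiff 2.1.1, with no role or order. The estimated counts were rounded to whole numbers. edgeR 4.0.16 (R 4.3.3) fitted all 16 libraries in 1 model with TMM factors, genes filtered for low counts by group, robust quasi-likelihood dispersion and Benjamini-Hochberg adjustment over all tested genes; the standard error is the log2 fold change over the root of F. Totals of 17184282 to 39903266 fragments put the floor of 3 fragments at 0.0752 to 0.175 CPM, which covers counting error only. The fit was run on simulated data in which few genes changed, as many up as down. Such data cannot test the choice of scaling, since 62.7% of all tested genes differed at 10 days here.

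The members and lists were chosen with earlier results of these data known. Values in every library were limited to 20 genes chosen by role, some given here by their mean only, and to the 12 others with the largest change from 0 days among those with a joint adjusted p under 0.05 and a mean of at least 5 CPM; Dnajc6 is outside that rule. Pathway genes were named as at most the 3 with the largest change in each list, besides Hsf1, Hsf2, Bag3, Unc45b and Stip1. Alternatives were RLE, upper-quartile and library-total scaling, DESeq2 1.42.0, limma-voom (limma 3.58.1), other filters, fits of 8 libraries, the number on the library as a replicate block, a covariate for the letter in the title, and fits without 1 library. A planned search of protein sequences was not run, and levels were not compared between genes, since no lengths were used here. The labels do not say whether the numbers on the libraries pair them. Deviations from the group means correlated by 0.0191 on average between groups with the same number, from -0.298 to 0.277. Correlations over all tested genes cannot exclude a pairing.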

Additional observations from a re-analysis of the deposited data

Results flagged for a closer look

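Among 32 genes, the 20 chosen by role and the 12 with the largest change, there were 128 groups of 4 libraries. In these, 1 library of each of 6 genes stood apart from the other 3 by Dixon's criterion, which chance alone meets in about 1 in 20 groups. At 0 days these were Hspa2 in replicate 2 (17.7 CPM, others 13.5 to 14.1), Hspb1 in replicate 4 (309 CPM, others 433 to 450.3) and Dnajc2 in replicate 4 (116 CPM, others 123 to 125). At 10 days Cryab was low in replicate 3 (1038 CPM, others 1307 to 1332). At 30 days Hspb7 was low in replicate 1 (1086 CPM, others 1164 to 1168) and Hspa4l in replicate 3 (4.16 CPM, others 7.56 to 8.01).

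For 8 of the 65 genes the change from 0 days was called in opposite directions at 2 times, and the difference between those times was itself called by edgeR. Hsph1 went from 0.65 at 10 days to -0.41 at 60 days, a log2 difference of -1.06. Hsp90ab1 went from 0.58 to -0.31, a difference of -0.89, and Hspa4 from 0.39 to -0.26, a difference of -0.66. Cryab went from -0.68 to 0.60, a difference of 1.28, and Hspb3 from -0.80 to 0.31, a difference of 1.10. Dnajc2 went from 0.29 at 10 days to -1.12 at 30 days, a difference of -1.41, and to -0.44 at 60 days, a difference of -0.74 from 10 days. Dnaja2 went from 0.50 at 10 days to -0.19 at 30 days, a difference of -0.68, and to -0.41 at 60 days, a difference of -0.91. Its 30-day value against 0 days was not called without any one of the 4 controls, 30-day replicate 2, 3 or 4 or 60-day replicate 2 or 4, at -0.21 to -0.17. Dnajc30 went from 0.29 at 10 days to -0.32 at 30 days, a difference of -0.62, and to -0.55 at 60 days, a difference of -0.84. The differences between times were called by library totals too, while of these genes only Dnajc2 kept a called change in both directions from 0 days.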

How the results depend on the processing

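The counts of changed members stayed within 1.5 times the main count under every alternative, except between 60 and 30 days. There 20 members were called, against 10 in a fit of the 8 libraries compared alone. Leaving out 1 library gave 12 to 27 for that comparison, with 12 without 30-day replicate 1, 30-day replicate 4 or 60-day replicate 2. It gave 37 to 46 at 10 days, 39 to 45 at 30 days and 33 to 39 at 60 days against 0 days, 33 to 37 between 30 and 10 days, 41 to 45 between 60 and 10 days, and 54 to 58 in the joint test. With the replicate number as a block the counts were 38, 43 and 39 against 0 days and 57 in the joint test. Under the block they were 37 between 30 and 10 days, 19 between 60 and 30 days and 44 between 60 and 10 days. Of the single-gene calls, 7 were lost under the block and 6 gained. The share of all genes called is not given for the fits of 8 libraries, without 1 library or with the block. Their counts thus show how the calls depend on the fit, and nothing particular to the members.

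Of the single-gene results, DESeq2 changed the call of 21, limma-voom of 10, RLE factors of 12 and upper-quartile factors of 40. A covariate for the letter in the title ended 12 calls and added 7, fits of the 8 libraries compared ended 18 and added 13, and the fit with no filter for low counts ended 9. Library totals ended 47 calls and added 60 where the direction was kept. They turned the direction of another 58 results that were called under either scaling, because they shift all genes together. Some of these 58 lost or gained their call with the turn, so not all were called in both directions. At 30 days against 0 days the values became Dnaja2 0.31, Dnajb2 0.30, Dnajc10 0.17, Dnajc14 0.0715, Dnajc15 0.0741, Dnajc18 0.27, Dnajc19 0.25, Dnajc30 0.17, Dnajc4 0.30, Dnajc5 0.0779, Dnajc7 0.33, Dnajc8 0.48, Hsp90ab1 0.31, Hspa12b 0.0034, Hspa13 0.0285, Hspa2 0.44, Hspa4 0.42, Hspa8 0.33, Hspe1 0.22, Hsph1 0.49, Unc45b 0.25 and Stip1 0.27. At 10 days against 0 days the values became Dnajb1 0.59, Dnajb12 0.42, Dnajb9 0.26, Dnajc11 0.16, Dnajc17 0.48, Dnajc18 0.60, Dnajc22 0.57, Dnajc24 0.42, Dnajc4 0.0669, Dnajc5 0.56, Dnajc7 0.48, Hsp90b1 0.58, Hspa12a 0.27, Hspa5 0.48, Hspa8 0.39, Hspb2 0.22, Hspe1 0.52, Hsf1 0.30 and Stip1 0.43. At 60 days against 0 days the values became Dnajb11 0.34, Dnajb2 0.35, Dnajb6 0.29, Dnajc14 0.0396, Dnajc15 0.33, Dnajc19 0.21, Dnajc4 0.32, Dnajc7 0.26, Hsp90ab1 0.0934, Hspa4 0.14, Hspa8 0.15, Hspd1 0.08 and Stip1 0.32. At 60 days against 10 days the values became Dnajc11 -0.23, Dnajc7 -0.23 and Hspa8 -0.25. For Timm44, 30 days against 0 days, the value became 0.0605. Depth limits Dnajc6 at 0 days and the 6 genes under 10 fragments.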
